A study of Bos taurus with 3 samples.

Results

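Solute carriers are the membrane proteins that move sugars, amino acids, ions, metals, vitamins and other small solutes across cell and organelle membranes. They were described here in the mammary gland of Holstein cows around parturition. A gene counted as a member when its symbol in the deposited gene tables had the form of a solute carrier name (SLC followed by a family number and a letter, or SLCO followed by a number). The mitochondrial SLC25 family and the 3 genes SLC3A2, SLC43A2 and SLC38A5 were left out. This gave 132 accessions (131 symbols, with SLC11A2 under 2 accessions) of 9154 listed genes. By name 129 of them are carriers, and the other 3 (SLC9A3R1, SLC9A3R2 and SLC7A6OS) carry the letters only because they were named after a carrier or lie beside one.

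Mammary tissue of 18 Holstein cows of the second parity was collected by biopsy, from 6 cows at each of 3 time points: −35 d (the dry period), −7 d (before parturition, stage I of lactogenesis) and +3 d (after parturition, stage II). RNA was extracted from the pooled tissue of all 6 cows of a group, which gave 1 digital gene expression (DGE) library. From these libraries no spread among cows can be estimated, and no difference could be checked in replicate libraries. The paper also measured a set of genes, SLC14A1 among them, by quantitative PCR, partly in RNA of biological replicates. It reported patterns generally like those of DGE. DGE counts 1 short tag per transcript, at a CATG site near its 3′ end. The levels below are tags, or TPM, the tags of a gene per 1000000 clean tags of the library, with no term for gene length.

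Milk is made from blood. The secretory epithelium takes up glucose, amino acids, fatty acids, vitamins and minerals across its basal membrane, builds lactose, casein and fat from them, and secretes ions, zinc and phosphate with the milk. Lactose synthesis in the Golgi uses glucose and UDP-galactose, so carriers of the plasma membrane and carriers of nucleotide sugars in the Golgi both stand on the path to milk sugar. Biopsies of the gland also hold adipocytes, fibroblasts, vessels and immune cells, each with carriers of its own.

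In time order the libraries held 5914422, 5593237 and 5845821 clean tags, so 3 tags stood for 0.507, 0.536 and 0.513 TPM. Genes of milk proteins took a growing part of this total: CSN1S1, CSN2, CSN3, CSN1S2 and PAEP, each over 1% of a library, held 0.348%, 4.13% and 22.6% of the clean tags. For 7570 genes averaging 1 TPM or more, log2 ratios had a median of −0.19 at −7 d against −35 d, −0.31 at +3 d against −7 d and −0.53 at +3 d against −35 d. The scaling factors of edgeR's TMM method, which centre most genes near 0, raised the log2 ratios of these comparisons by 0.19, 0.31 and 0.50. Keratins and EPCAM of the luminal epithelium were present in every library, with a summed level of 1565, 1112 and 861.6 TPM for 8 listed markers of a list of 11. In pooled bulk tissue, fewer cells of a type and less RNA per cell cannot be told apart.

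The solute carriers together made up a small share of the tags. From −35 d to +3 d they held 0.201%, 0.243% and 0.184% of the clean tags, or 2012.4, 2426.7 and 1838.2 TPM. Of the 132 accessions, 120, 110 and 116 were listed in time order and 100 in all 3 libraries. The median of their mean levels was 5.35 TPM, beside 10.94 TPM over all genes. Only 3 members, SLC29A1, SLC38A2 and SLC31A1, had a mean of at least 100 TPM, while 35 lay under 1 TPM. The annotation of a later bovine assembly, used for names only, holds 325 symbols of the same form, of which 129 were listed here.

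**Figure D1:**
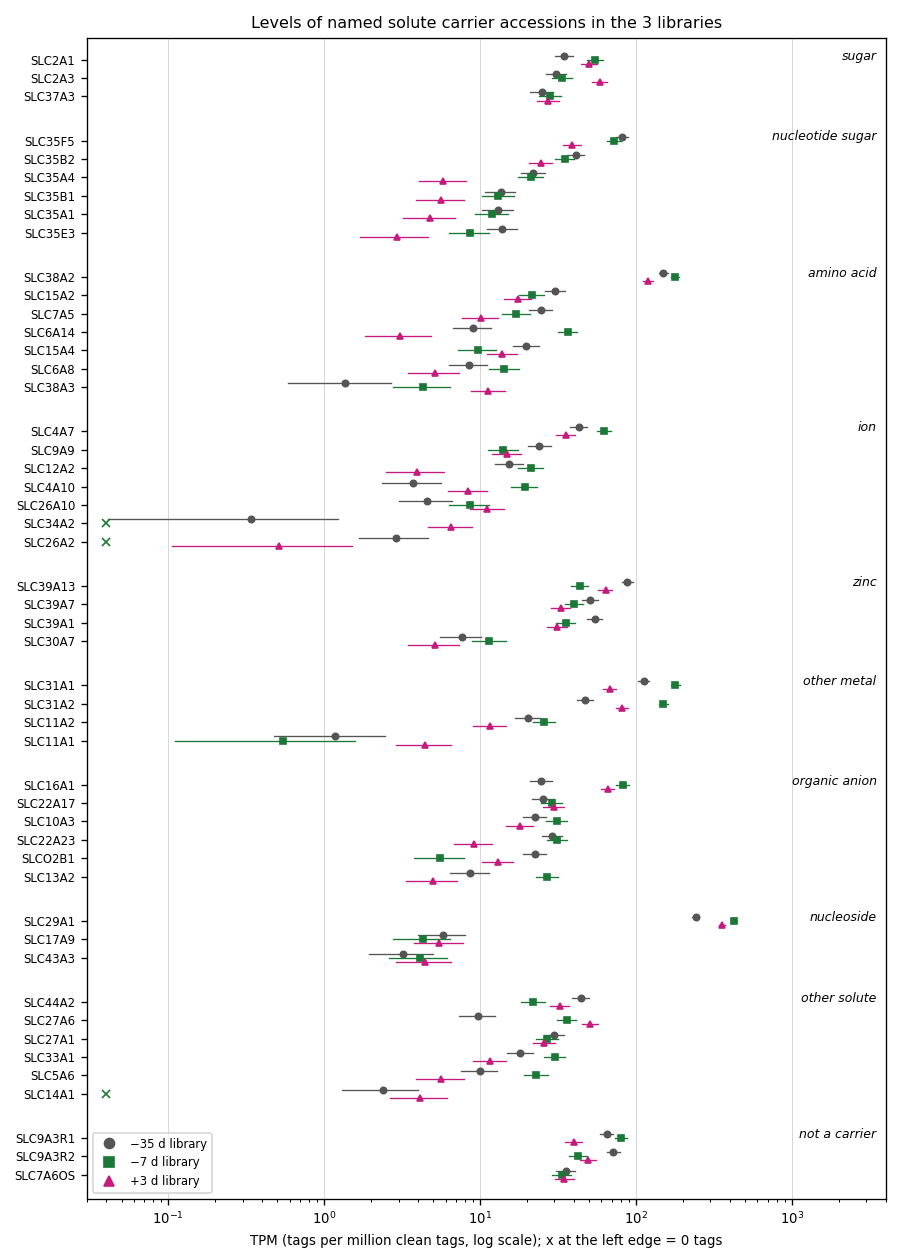
Levels of named accessions in TPM (log scale), by substrate class, in the −35 d (circle), −7 d (square) and +3 d (triangle) libraries, with exact 95% counting intervals as bars; a cross at the left edge marks 0 tags. SLC29A1 stood highest in every library (242, 426 and 357 TPM), and SLC6A14, SLC4A10 and SLC13A2 stood well above their other levels at −7 d.

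Each gene was compared between libraries by the exact Audic-Claverie test, which asks whether tag counts differ by more than Poisson counting error. Calls needed an FDR no higher than 0.001 and a difference of 2-fold or more (a log2 ratio beyond 1 in either direction). At −7 d against −35 d, 13 of 126 tested solute carriers (10.3%) were called, beside 9.07% of all genes tested. Of these, 7 were upregulated (5.56%, beside 2.62% of all genes) and 6 downregulated (4.76%, beside 6.45%). With TMM scaling 9 members were called upregulated and 2 downregulated, where 4.22% of all genes were called upregulated, 3.9% downregulated and 8.12% in either direction. Calls of solute carriers thus lay near the share of all genes in this comparison.

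At +3 d against −7 d, 21 of 122 tested members (17.2%) were called, beside 13.5% of all genes. Here 5 were upregulated (4.1%, beside 3.12%) and 16 downregulated (13.1%, beside 10.4%). TMM scaling changed this to 10 upregulated and 9 downregulated, with 5.87% of all genes upregulated, 4.9% downregulated and 10.8% in either direction. At +3 d against −35 d, 14 of 130 members (10.8%) were called, beside 18.6% of all genes. Of these, 5 were upregulated (3.85%, beside 2.33%) and 9 downregulated (6.92%, beside 16.3%), against 14 and 4 with TMM scaling, where 6.23% of all genes were upregulated, 4.94% downregulated and 11.2% in either direction. Whether calls lay mostly up or down therefore depended on the scaling after parturition. In all, 31 members were called in at least 1 comparison and 101 in none. The 3 comparisons share libraries, and each is given with its own values below.

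**Figure D2:**
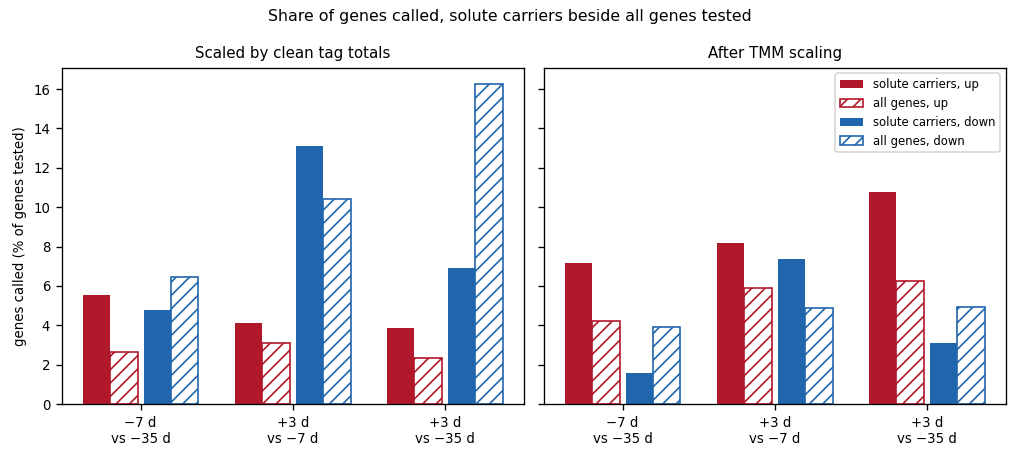
Share of tested genes called (percent), for the solute carriers (filled bars) and all genes (hatched bars), scaled by clean tag totals (left) and after TMM scaling (right). The share of downregulated solute carriers was below that of all genes at +3 d against −35 d (6.92% beside 16.3%), and at +3 d against −7 d the excess of downregulated over upregulated members (16 and 5) was gone after TMM scaling (9 and 10).

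Counting error is not the only error in such data. When the edgeR exact test was run with biological variation assumed at a coefficient of 0.2, no member stayed called at −7 d against −35 d. At +3 d against −7 d, SLC34A2 and SLC14A1 stayed upregulated and SLC6A14, SLC12A2 and SLC13A2 downregulated, and at +3 d against −35 d SLC34A2, SLC38A3 and SLC27A6 stayed upregulated. With a coefficient of 0.4 no member was called in any comparison. The median log2 ratio of the 97 members averaging 1 TPM or more was −0.07, −0.25 and −0.33 in the 3 comparisons, above the −0.19, −0.31 and −0.53 of all genes, and it turned to 0.12, 0.05 and 0.17 with TMM scaling.

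**Figure D3:**
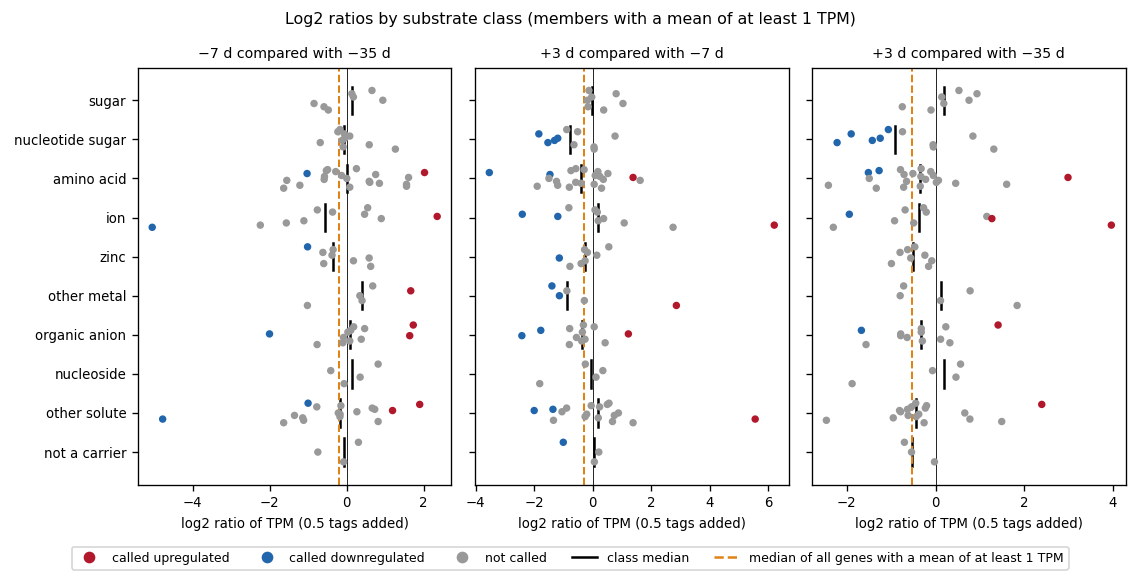
Log2 ratios of the 97 members averaging 1 TPM or more by substrate class, with 0.5 tags added, in the 3 comparisons; short bars are class medians and the dashed line is the median of all genes. Nucleotide sugar carriers held the lowest class median at +3 d against −35 d (−0.91, or −0.41 with TMM scaling). The medians of the sugar, nucleoside and other solute classes stood above the dashed line in all 3 panels.

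By clean tag totals no sugar carrier was called. With TMM scaling 4.22%, 5.87% and 6.23% of all genes were upregulated in the 3 comparisons. Of the sugar carriers tested, 1 of 11, 2 of 10 and 3 of 12 were then upregulated, and none was downregulated. Their summed level was 119.9 TPM at −35 d, 148.6 at −7 d and 170.7 at +3 d. SLC2A1, the facilitative transporter that brings glucose into most cells, had 205, 306 and 292 tags. Its log2 ratio was 0.66 (95% interval 0.40 to 0.92) at −7 d against −35 d and 0.53 (0.26 to 0.79) at +3 d against −35 d, which exceeded counting error (FDR of the exact test 2.5e-06 and 0.000181) but not the 2-fold limit. SLC2A3, a glucose transporter of high affinity best known from neurons and leukocytes, had 181, 188 and 342 tags, so that its higher level stood at +3 d alone (log2 ratio 0.80 to −7 d and 0.93 to −35 d). After TMM scaling SLC2A1 was upregulated at +3 d against −35 d (1.03) and SLC2A3 at +3 d against both other libraries (1.11 and 1.43). SLC2A8, a glucose transporter of intracellular membranes, had 61, 111 and 102 tags and was likewise upregulated only with TMM scaling, at −7 d (1.13) and +3 d (1.26) against −35 d.

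The other sugar carriers had lower levels or small differences. SLC37A3, of the sugar phosphate exchanger family, had 147, 157 and 160 tags, and its relative SLC37A2 48, 25 and 54, which passed the test only after TMM scaling at +3 d against −7 d (1.36). The insulin-responsive glucose transporter SLC2A4 had 12, 8 and 11 tags. SLC5A1, which couples glucose uptake to sodium, had 0, 6 and 2 tags and was not called.

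Carriers of nucleotide sugars and of related nucleotides into the Golgi and endoplasmic reticulum had no call before parturition and downregulated members only at +3 d. The class was set by the family name SLC35, so the substrate of a member need not be a nucleotide sugar. Its summed level was 210.2 TPM at −35 d, 191.1 at −7 d and 115.0 at +3 d. SLC35F5 alone made up 38.9%, 37.9% and 33.9% of this level in time order. None of 12 tested members was called at −7 d against −35 d. At +3 d, 4 of 10 tested members were downregulated against −7 d and 5 of 12 against −35 d, beside 10.4% and 16.3% of all genes, and none was upregulated. With TMM scaling this became 1 downregulated and 1 upregulated, and 2 downregulated and 1 upregulated, respectively, beside 4.9% and 4.94% of all genes downregulated.

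SLC35A4, a member of the UDP-sugar carrier family, fell furthest against −7 d. It had 130 and 118 tags before parturition and 34 at +3 d (22.0, 21.1 and 5.82 TPM), a log2 ratio of −1.86 (−2.45 to −1.30) at +3 d against −7 d and −1.92 (−2.51 to −1.36) against −35 d, and both calls held with TMM scaling (−1.55 and −1.42). SLC35E3, whose substrate is not established, had 82, 48 and 17 tags and was downregulated at +3 d against −7 d (−1.56) and −35 d (−2.25), of which the latter held with TMM scaling (−1.76). SLC35A1, which carries CMP-sialic acid into the Golgi for the sialylation of glycans, had 77, 67 and 28 tags. SLC35B1, an exchanger of adenine nucleotides in the endoplasmic reticulum, had 80, 73 and 33. Both were downregulated at +3 d in both comparisons (SLC35A1 −1.32 and −1.44, SLC35B1 −1.21 and −1.26), and all 4 calls were lost with TMM scaling.

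SLC35F5, the class member with the most tags, had 483, 405 and 228 and was downregulated at +3 d against −35 d (−1.07), but not with TMM scaling (−0.57). SLC35B2, which carries the sulfate donor PAPS into the Golgi, had 243, 196 and 143 tags and was not called. SLC35C2 went the other way, with 54, 54 and 96 tags, and was upregulated only after TMM scaling (1.07 and 1.34 at +3 d). The GDP-fucose carrier SLC35C1 had 44, 39 and 42 tags and was not called. SLC35A2, the UDP-galactose carrier on which lactose synthesis draws, was listed with 2 tags at −35 d and with none afterwards, too few for a comparison at this depth.

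Amino acid and peptide carriers were the largest class, with 27 accessions and 307.0, 339.7 and 235.0 TPM. Of those tested, 8%, 12% and 11.1% were called in the 3 comparisons, shares that did not exceed the 9.07%, 13.5% and 18.6% of all genes. These were 1 up and 1 down at −7 d against −35 d, 1 and 2 at +3 d against −7 d, and 1 and 2 at +3 d against −35 d. SLC38A2, a sodium-coupled carrier of small neutral amino acids, made up 48.7%, 52.5% and 50.7% of the class. It had 884, 997 and 697 tags and was not called, and its log2 ratio at +3 d against −35 d, −0.33, turned to 0.17 with TMM scaling.

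SLC6A14, which takes up neutral and basic amino acids with sodium and chloride, had the sharpest course. Its level was 8.96 TPM at −35 d, 36.7 at −7 d and 3.08 at +3 d, from 53, 205 and 18 tags. It was upregulated at −7 d (log2 ratio 2.03, 1.59 to 2.50) and 11.9-fold lower at +3 d than at −7 d (−3.57, −4.36 to −2.88; FDR of the exact test 6.51e-42), and both calls held with TMM scaling. It was also downregulated at +3 d against −35 d (−1.54), which did not hold with TMM scaling (−1.04). SLC38A3, a carrier of glutamine and histidine, was highest at +3 d, with 8, 24 and 66 tags (1.35, 4.29 and 11.3 TPM). It was upregulated at +3 d against −7 d (1.4, 0.70 to 2.13) and against −35 d (3.06, or 8.35-fold), with either scaling.

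SLC7A5, the light chain of a heterodimer that exchanges large neutral amino acids, had 145, 95 and 59 tags. It was downregulated at +3 d against −35 d (−1.28, −1.74 to −0.83), but not with TMM scaling (−0.78). Its heavy chain SLC3A2, which is not a member here, had 433, 137 and 183 tags and was lowest at −7 d. The creatine carrier SLC6A8 had 50, 80 and 30 tags and was downregulated at +3 d against −7 d (−1.48, or −1.17 with TMM scaling). SLC15A4, a peptide and histidine carrier of lysosomes, had 117, 54 and 81 tags and was downregulated at −7 d (−1.03), a call lost with TMM scaling (−0.84).

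Other amino acid and peptide carriers were not called by clean tag totals. The peptide carrier SLC15A2 had 179, 120 and 102 tags, the light chain SLC7A7, for basic amino acids, 107, 83 and 98, and the glutamine carrier SLC1A5 29, 9 and 30. Of these SLC1A5 was upregulated at +3 d against −7 d, only with TMM scaling (1.98). The cationic amino acid carrier SLC7A1 was listed with 2 tags at −35 d and with none in the other libraries.

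Ion carriers summed to 130.4, 149.3 and 107.6 TPM, with calls in both directions. SLC12A2, which brings sodium, potassium and chloride into secretory cells, had 91, 119 and 23 tags (15.4, 21.3 and 3.93 TPM). It was 5.41-fold lower at +3 d than at −7 d (log2 ratio −2.43, −3.15 to −1.78) and 3.91-fold lower than at −35 d (−1.97, −2.70 to −1.29), with both calls kept under TMM scaling (−2.13 and −1.47). SLC34A2, a sodium-coupled phosphate carrier of apical membranes, went the other way, with 2, 0 and 38 tags. It was at least 12.1-fold higher at +3 d than at −7 d, measured against the limit of 3 tags, and 19.2-fold higher than at −35 d (log2 ratio 4.26, 2.31 to 7.36, from 2 tags). This was the highest ratio in that comparison among members with tags in both libraries.

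Bicarbonate and sulfate carriers added further calls. SLC4A10, a sodium-driven bicarbonate carrier, had 22, 108 and 49 tags and was upregulated at −7 d (2.38, 1.70 to 3.11). Its level was lower again at +3 d (−1.2 against −7 d, a call lost with TMM scaling at −0.90), while at +3 d against −35 d only TMM scaling gave a call (1.67). SLC26A10, of the anion exchanger family, had 27, 48 and 65 tags and was upregulated at +3 d against −35 d (1.28). SLC26A2, the sulfate carrier needed for the sulfation of proteoglycans, had 17, 0 and 3 tags and was downregulated at −7 d. Its −35 d level was 5.36-fold that of 3 tags at −7 d.

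Ion carriers with more tags than these were not called. SLC4A7, a sodium bicarbonate cotransporter, had 254, 351 and 208 tags, and its log2 ratio of −0.27 at +3 d against −35 d turned to 0.23 with TMM scaling. The endosomal sodium-proton exchanger SLC9A9 (142, 79 and 87 tags) was also not called. The ion class median at −7 d against −35 d was −0.56, and 0.05 when counts of 0 were set to 3 tags. That setting puts SLC34A2, with 2 and 0 tags, above 0. The median thus rested on the treatment of counts of 0 and gave no direction.

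Zinc carriers were lower after −35 d as a group, from 239.6 TPM to 162.9 at −7 d and 162.0 at +3 d. All 8 zinc carriers with a mean of at least 1 TPM had a log2 ratio below 0 at +3 d against −35 d, with a median of −0.51 that lay near the −0.53 of all genes and became −0.02 with TMM scaling. SLC39A13, a zinc carrier of the early secretory pathway known for its part in connective tissue, held the most tags, 522, 244 and 373. It was downregulated at −7 d (−1.02, −1.24 to −0.79), just past the 2-fold limit and not with TMM scaling (−0.83). A list of fibroblast markers was also lowest at −7 d (7834, 5823 and 8866 TPM for 6 listed of 8, none at 0), and its part in this result was not tested.

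Among the remaining zinc carriers 1 call was made. SLC39A7, which releases zinc from the endoplasmic reticulum, had 301, 223 and 192 tags, and SLC39A1, which brings zinc in at the plasma membrane, 323, 199 and 183. Neither was called, although both were lower at +3 d than at −35 d by more than counting error (−0.63 and −0.80), differences that shrank to −0.13 and −0.30 with TMM scaling. SLC30A7, which loads zinc into the Golgi, had 45, 64 and 30 tags and was downregulated at +3 d against −7 d (−1.16), a call lost with TMM scaling (−0.85).

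Copper and iron carriers had their highest summed level at −7 d. The other metal class, 6 accessions, summed to 188.2, 365.3 and 173.6 TPM, mostly from 2 copper carriers. SLC31A1, the main copper importer of the plasma membrane, had 662, 1001 and 397 tags (111.9, 179 and 67.9 TPM). It was 2.64-fold lower at +3 d than at −7 d (log2 ratio −1.4, −1.57 to −1.23), with either scaling, and its ratio of 0.68 at −7 d against −35 d stayed under the limit. SLC31A2, its relative in endosomes and lysosomes, had 280, 840 and 475 tags and was upregulated at −7 d against −35 d (1.67, 1.47 to 1.87), and at +3 d against −35 d only with TMM scaling (1.28).

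SLC11A2, the importer of ferrous iron, was listed under 2 accessions. The later annotation gives an SLC11A2 accession the symbol LOC512464, so the 2 need not be the same gene. The first had 120, 144 and 68 tags and was downregulated at +3 d against −7 d (−1.15, or −0.84 and no call with TMM scaling), while the second had 44, 55 and 47 tags and was not called. SLC11A1, the metal carrier of macrophage phagosomes, had 7, 3 and 26 tags and was 8.29-fold higher at +3 d than at −7 d (log2 ratio 3.05, 1.35 to 5.42). A list of macrophage markers stood at 467.5, 323.4 and 569.5 TPM (11 symbols listed of 14, with 1 accession of MSR1 at 0 tags at −7 d), and CD14, CD163 and CSF1R among them were upregulated in the same comparison. Its part in the SLC11A1 result was not tested.

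**Figure D4:**
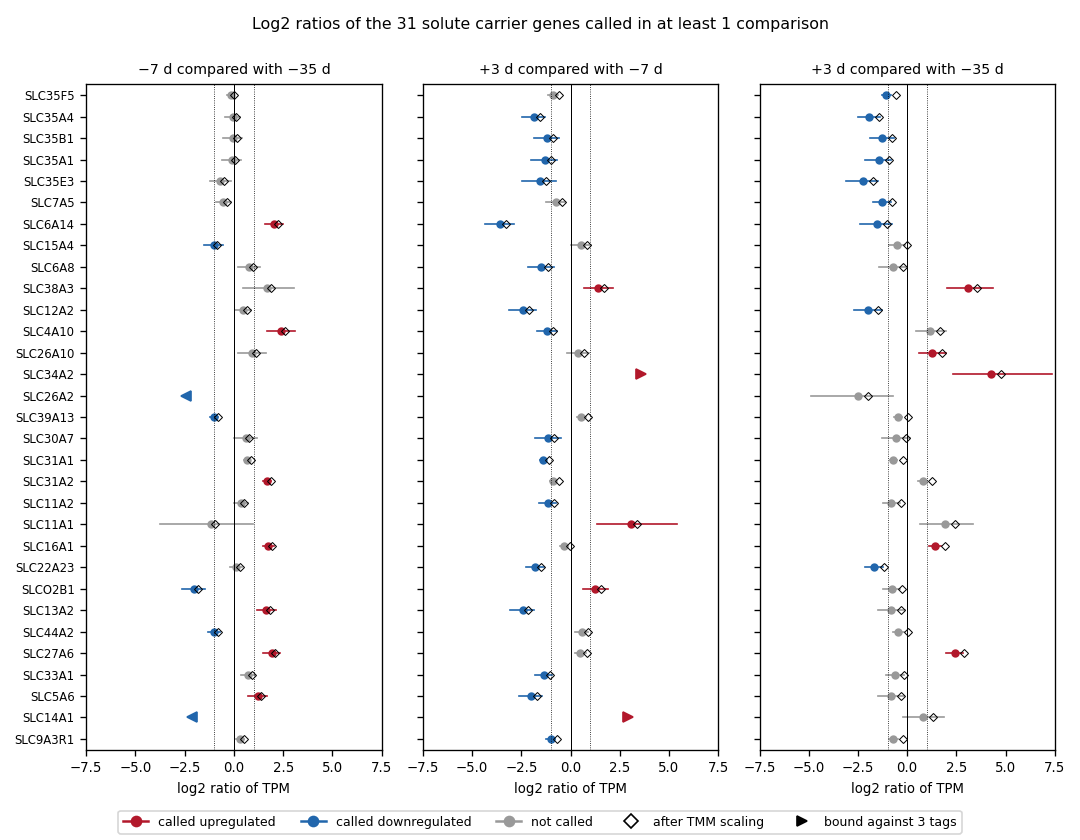
Log2 ratios of the 31 called members with 95% counting intervals (circles and bars), in red if called upregulated, blue if downregulated and grey if not called. Diamonds give the same ratio after TMM scaling. Triangles, labelled as bounds, give the ratio to 3 tags where a library had none. Dotted lines mark the 2-fold limit. In the middle panel SLC6A14 (−3.57), SLC13A2 (−2.44) and SLC12A2 (−2.43) lay furthest left, and TMM scaling moved SLC35F5, SLC35B1 and SLC7A5 inside the limit in the right panel.

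Among organic anion carriers, which summed to 177.0, 249.9 and 175.5 TPM, 6 members were named for their level or call. SLC16A1, which moves lactate, pyruvate and ketone bodies with a proton, was upregulated at both later times. It had 146, 459 and 384 tags (24.7, 82.1 and 65.7 TPM), with a log2 ratio of 1.73 (1.46 to 2.01) at −7 d and 1.41 (1.13 to 1.70) at +3 d against −35 d, and both calls held with TMM scaling. Its chaperone BSG, also called basigin, had 1967, 1381 and 1208 tags and was not called. SLC13A2, which takes up citrate and other dicarboxylates with sodium, had 51, 151 and 29 tags, so that its −7 d level stood above both others. It was upregulated at −7 d (1.65, 1.18 to 2.13) and 5.44-fold lower at +3 d than at −7 d (−2.44, −3.07 to −1.86), with either scaling.

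SLCO2B1, which takes up steroid sulfates and other large anions, was lowest at −7 d. It had 133, 31 and 76 tags (22.5, 5.54 and 13 TPM), was downregulated at −7 d against −35 d (−2.02, −2.63 to −1.45) and upregulated at +3 d against −7 d (1.23, 0.61 to 1.88), and kept both calls with TMM scaling. SLC22A23, an organic ion carrier with no settled substrate, had 172, 175 and 53 tags and was downregulated at +3 d against −7 d (−1.79) and −35 d (−1.68), also with TMM scaling (−1.48 and −1.18). The 2 others with the most tags, SLC22A17 (150, 161 and 174) and SLC10A3 (133, 174 and 105), were not called.

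Nucleoside carriers were in effect SLC29A1, which equilibrates nucleosides such as adenosine and uridine across the plasma membrane. It made up 94.8%, 97.2% and 96.8% of the tags of the class and was the most abundant member in every library, with 1431, 2385 and 2089 tags (242, 426 and 357 TPM). Its log2 ratio was 0.82 (0.72 to 0.91) at −7 d and 0.56 (0.46 to 0.66) at +3 d against −35 d, intervals that exclude 0 but stay within the 2-fold limit, so it was called only with TMM scaling (1.01 and 1.06). Its ratio at +3 d against −7 d was −0.25 (−0.34 to −0.17), which turned to 0.05 with TMM scaling. SLC29A2, its relative, had 20, 18 and 5 tags, the vesicular nucleotide carrier SLC17A9 34, 24 and 32, and the nucleobase carrier SLC43A3 19, 23 and 26, and none of these was called.

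Carriers of lipids, vitamins and other solutes, 20 accessions, summed to 213.2, 225.1 and 206.1 TPM. Of those tested, 21.1%, 15% and 5% were called in the 3 comparisons, beside 9.07%, 13.5% and 18.6% of all genes. These were 2 up and 2 down, 1 and 2, and 1 and 0. With TMM scaling the counts were 2 and 0, 2 and 2, and 2 and 0, beside 8.12%, 10.8% and 11.2% of all genes called. SLC27A6, which promotes the uptake of long-chain fatty acids, had 57, 202 and 298 tags (9.64, 36.1 and 51 TPM). It was upregulated at −7 d (1.91, 1.48 to 2.36) and 5.29-fold higher at +3 d than at −35 d (2.40, 1.99 to 2.84; FDR of the exact test 6.8e-40), with either scaling. SLC27A1, a fatty acid carrier of muscle and fat, had 176, 150 and 151 tags and was not called. A list of adipocyte markers stood at 326.7, 216.7 and 456.4 TPM (9 listed of 10), with PLIN4 at 0 tags at −7 d and +3 d. Its part in the SLC27A6 result was not tested.

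SLC5A6, which takes up biotin and pantothenate with sodium, and SLC33A1, which carries acetyl-CoA into the endoplasmic reticulum, were both highest at −7 d. SLC5A6 had 59, 128 and 33 tags and was upregulated at −7 d (1.2, 0.74 to 1.67) and downregulated at +3 d against −7 d (−2.02, −2.62 to −1.46). SLC33A1 had 107, 168 and 68 tags and was downregulated at +3 d against −7 d (−1.37, −1.80 to −0.95). All 3 calls held with TMM scaling. SLC44A2, of the choline carrier family, had 261, 123 and 189 tags and was downregulated at −7 d by the narrowest margin of any called member (−1.0, or −0.81 and no call with TMM scaling).

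The urea carrier SLC14A1 had 14 tags at −35 d, none at −7 d and 24 at +3 d. It was downregulated at −7 d against −35 d, a call lost with TMM scaling. At +3 d against −7 d it was upregulated, a call kept with TMM scaling. Relative to 3 tags at −7 d, its level was 4.41-fold at −35 d and 7.65-fold at +3 d. The −35 d and +3 d levels did not differ by more than counting error (0.79, −0.21 to 1.86). The quantitative PCR of the paper covered this gene too, and its values were not used here. The paper's Discussion lists SLC14A1 among amino acid transporters downregulated in stage I, with a far smaller difference than found here. The log2 ratio here was −7.89, which rests on setting 0 TPM to 0.01 TPM. SLC14A1 is also known from red cells, and a list of erythrocyte markers stood at 2.367, 1.788 and 4.105 TPM (4 listed of 9), with HBB at 2, 0 and 0 tags and ALAS2 at 0, 0 and 3. The part of such cells in the SLC14A1 result was not tested.

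Among the members that are no carriers, the scaffold SLC9A3R1, which anchors transporters at apical membranes, had 384, 449 and 233 tags and was downregulated at +3 d against −7 d (−1.01, or −0.70 and no call with TMM scaling). SLC9A3R2 (423, 238 and 287 tags) and SLC7A6OS (209, 187 and 203 tags) were not called. A further scaffold of the same kind, PDZK1, had 88, 37 and 20 tags and was downregulated at −7 d and at +3 d against −35 d, the latter also with TMM scaling.

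The ion gradients that drive many carriers are kept up by pumps, and heavy chains, kinases and scaffolds place carriers in the membrane. Of 35 such genes, 18 symbols (19 accessions) were listed, with a summed level of 1361, 939.7 and 725.6 TPM. None was upregulated and 2 were downregulated at −7 d against −35 d, 2 and 1 at +3 d against −7 d, and 0 and 5 at +3 d against −35 d. Of all genes, 2.62%, 3.12% and 2.33% were upregulated in these comparisons, and 6.45%, 10.4% and 16.3% downregulated. With TMM scaling the counts of the list became 0 and 1, 3 and 0, and 1 and 1, so the downward balance at +3 d against −35 d was gone. The shares of all genes were then 4.22%, 5.87% and 6.23% upregulated, and 3.9%, 4.9% and 4.94% downregulated. ATP2C1, the calcium and manganese pump of the Golgi, had 219, 125 and 85 tags and was downregulated at +3 d against −35 d (−1.35). FXYD6, a small regulator of the sodium pump and the gene with the most tags of the list, had 3089, 1687 and 1240 tags and was downregulated in the same comparison (−1.3). Both calls were lost with TMM scaling. STOM, a membrane scaffold, had 206, 63 and 119 tags under its main accession and was downregulated at −7 d (−1.63). The plasma membrane calcium pump ATP2B1 (41 and 94 tags) and the sodium pump regulator FXYD1 (72 and 175 tags) were upregulated at +3 d against −7 d, and the calcium pump ATP2A3 (190 and 83 tags) was downregulated (−1.26), which did not hold with TMM scaling.

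Channels for water and ions, the passive routes beside the carriers, were listed for 16 of 28 genes, with 299.3, 295.4 and 323.5 TPM. At the threshold, 1 was upregulated and 0 downregulated at −7 d against −35 d, 1 and 1 at +3 d against −7 d, and 1 and 2 at +3 d against −35 d. Of all genes, 2.62%, 3.12% and 2.33% were upregulated in these comparisons, and 6.45%, 10.4% and 16.3% downregulated. With TMM scaling the counts of channels were 1 and 0, 2 and 1, and 2 and 0. Beside them 4.22%, 5.87% and 6.23% of all genes were upregulated, and 3.9%, 4.9% and 4.94% downregulated. AQP3, a channel for water and glycerol, had 35, 250 and 134 tags and was upregulated at −7 d (2.92) and at +3 d (1.95) against −35 d, with either scaling. KCNN4, a potassium channel opened by calcium, had 50, 60 and 12 tags and was downregulated at +3 d against −7 d (−2.39) and −35 d (−2.04), the latter not with TMM scaling. LRRC8D, a subunit of the anion channel opened by cell swelling, had 269, 183 and 126 tags and was downregulated at +3 d against −35 d (−1.08), which was lost with TMM scaling. AQP1, the water channel of endothelium and red cells, had 464, 324 and 707 tags and was upregulated at +3 d against −7 d (1.06).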

How the data were processed

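One DGE library per time point was analysed. The authors digested cDNA with NlaIII, filtered out adaptors, undetermined bases, off-length tags and tags of 1 copy, and allowed 1 mismatch when mapping the 21-base clean tags to UMD 3.1 transcripts. The deposited counts are unambiguous clean tags per gene (tags of several genes left out), and the deposited TPM values are these counts per 1000000 clean tags. Unlisted genes were given 0 tags, although a gene not listed may have had tags. The p of the Audic-Claverie test was doubled from the smaller tail, adjusted by Benjamini-Hochberg over genes with a tag in either library, with 0 TPM set to 0.01 TPM. Intervals are exact binomial and cover counting error only, not the spread among cows. They treat tags as independent, although PCR copies are not independent molecules. A ratio counted as turned only where its interval excluded 0. The test compares libraries, not conditions. Log2 ratios of single genes were taken without added tags and class medians with 0.5 tags added. Tools were Python 3.11.15 (pandas 2.3.3, scipy 1.17.1, matplotlib 3.10.9, numpy 2.4.6), with R 4.3.3, edgeR 4.0.16 and DESeq2 1.42.0. The script was tested on simulated data.

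Named genes were every called member and the 3 with the highest mean TPM per class; others were named after their values were seen. A few genes are left out of the text. Members, classes and lists were chosen with earlier results of these data known. Substrate classes were set by family name. Of the member accessions, 116 matched the annotation of ARS-UCD2.0, 4 under another symbol (SLC11A2 as LOC512464, SLC15A2 as LOC506921, SLC9A3R1 as NHERF1 and SLC9A3R2 as NHERF2). No sequence or coordinate was used here. The 9 alternatives were TMM and DESeq2 size factors, totals without the 5 genes over 1%, Fisher's exact test, the edgeR exact test with 2 assumed coefficients of variation, 0.5 tags added, a 3-fold limit and a filter at a mean of 5 TPM.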

Additional observations from a re-analysis of the deposited data

How the results depend on the processing

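Counts of called members moved with the scaling, the assumed spread and the fold limit. At −7 d against −35 d, the 6 downregulated members became 2 with TMM, 2 with size factors, 3 without the genes over 1% and 3 at 3-fold. At +3 d against −7 d, the 5 upregulated members became 10 with each of these 3 scalings, 3 at 3-fold and 2 at a mean of 5 TPM, and the 16 downregulated became 9 with each scaling and 6 at 3-fold. The 5 members upregulated at +3 d against −35 d became 14, 14 and 11 with the scalings and 3 at 3-fold, and the 9 downregulated became 4 with each scaling and 4 at 3-fold. With a coefficient of variation of 0.2 the counts up and down were 0 and 0, 2 and 3, and 3 and 0, where all genes gave 27 and 27, 65 and 95, and 54 and 102. With 0.4 all 6 counts of members were 0. Fisher's exact test and 0.5 added tags left each count within 1.5 times. Among ratios whose interval excluded 0, the signs that turned belonged to ratios not called. At +3 d against −7 d these were SLC29A1 (0.05, 0.07 and 0.05 with the scalings) and SLC16A1 (0.00 with size factors). At +3 d against −35 d they were SLC38A2 (0.17, 0.19 and 0.04), SLC4A7 (0.23, 0.24 and 0.09), SLC39A13 (0.03 and 0.05), SLC44A2 (0.05 and 0.07) and SLC15A4 (0.00). Of the alternative values of single genes, 1139 kept their call or lack of one without counting as turned, 158 lost the call, 21 gained it and 15 turned. A ratio whose interval spanned 0 could change sign and still be among the 1139. An example is SLC2A1 at +3 d against −7 d (−0.13, and 0.18 with TMM scaling). For counts within classes, 89 of the values moved and 181 did not. No paired analysis was possible because each time point has 1 library. The depth limits the 44 members with at most 3 tags in any library, for which a difference was not detectable unless the other count was high.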

Other observations

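Members listed in few libraries had few tags. Of the 132 accessions, 14 were listed in 2 libraries and 18 in 1. The highest count among the latter was 5 tags, for SLC13A4, a sulfate carrier listed at −35 d alone, followed, among others, by 4 tags for SLC39A11 at −35 d, for SLC5A5, the iodide carrier, at −7 d and for SLC45A2 at +3 d. None of these was called, and counts this near to the limit of 3 tags do not show that a gene was on in one library and off in the others. The iron exporter SLC40A1 was listed with 2 tags at +3 d alone.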
